A study of Homo sapiens with 6 samples.

Results

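Cytosolic ribosomal protein genes, which encode the protein part of the ribosomes that translate nuclear mRNAs, were followed in HCT116 cells after knockdown of NONO. They were chosen by symbol alone: RPL or RPS with a number and up to 2 closing letters out of A, X and L, the stalk genes RPLP0, RPLP1 and RPLP2, and RPSA, with RPS27L left out. The rule found 81 of the 62492 genes in the files, 50 of the large and 31 of the small subunit, and 78 of them held enough counts to be tested. HCT116 is an established human colorectal carcinoma line. The study compared polyA RNA of cells given a control siRNA (siControl, genotype labelled WT) with cells given an siRNA against NONO (siNONO, labelled NONO knockdown). NONO is an RNA- and DNA-binding protein of nuclear paraspeckles. Each group had 3 libraries, numbered Set 1 to Set 3 in both groups, and all cells received siRNA at 20 nM with the same lipid reagent. The time between transfection and harvest is not given in the sources used here, and since 1 siNONO duplex is described, loss of NONO and other effects of that duplex cannot be told apart.

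A ribosome has a small subunit, which binds the mRNA and decodes it, and a large subunit, which joins amino acids and lets the new chain out through its exit tunnel. The proteins are needed in nearly equal numbers, and unassembled copies are degraded. Their mRNAs are short, very abundant and, as a class, begin with a run of C and T called a 5' terminal oligopyrimidine (TOP) tract, through which mTORC1 and LARP1 govern their translation. Shortage of single ribosomal proteins causes Diamond-Blackfan anemia, and free RPL5 and RPL11 bind MDM2 and thereby stabilise p53.

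The libraries held between 21765393 and 32659002 estimated counts. NONO stood at 502 ± 11.8 CPM (the count of a gene per library size, scaled by TMM; SD over 3 libraries) in siControl and at 95.1 ± 5.43 CPM in siNONO, a log2 fold change of -2.40. Of 7 markers of intestinal epithelium 6 were above 1 TPM in every library, with a summed level of 1946 to 2228 TPM, while VIL1, which encodes the brush border protein villin, stayed below that. Immune markers summed to 2.54 to 6.41 TPM in siControl and 6.67 to 7.40 TPM in siNONO, mostly CD68, with PTPRC and CD3E at or near 0; fibroblast markers to 16.5 to 19.3 TPM, nearly all of it COL1A1, with COL1A2 at 0; and endothelial markers to at most 0.34 TPM, with PECAM1 at 0. Neural markers summed to 125 to 132 TPM in siControl and 99.3 to 111 TPM in siNONO without overlap, mostly the tubulin gene TUBB3, with GFAP below 1 TPM. MAP2 of the same list went the other way, with 7.60 to 7.99 TPM in siControl and 8.90 to 11.4 TPM in siNONO. The part of these markers in the results was not tested. Over all 17000 genes tested, 46.6% passed an adjusted p of 0.05 in siNONO against siControl, 23.2% higher and 23.4% lower, so a call alone is common in these data. The test was the quasi-likelihood test of edgeR, blocked by Set, and p-values were adjusted by Benjamini-Hochberg over all genes.

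Most ribosomal protein mRNAs rose a little in siNONO, and 4 large subunit mRNAs fell. Of the 78 genes tested, 56 were higher, 4 were lower and 18 did not pass the test, beside 23.2% higher and 23.4% lower over all genes tested. These counts depend on the treatment of transcript length and on the scale. An offset for length left 23 higher and 13 lower with a median of 0.03, beside -0.01 over all genes. Limma on log2(TPM + 1) left 11 higher and 6 lower with a median of 0.06, beside -0.07 over all genes. The 4 that fell, in those fits too, were RPL14, RPL35, RPL28 and RPL36A. The median log2 fold change was 0.14 over the ribosomal protein genes and -0.005 over all genes tested. In bulk libraries such as these, fewer cells of a kind and less RNA per cell cannot be told apart. In siNONO 65 of the 78 were higher in all 3 Sets. The CPM of the groups did not overlap for 53 genes that were higher and 5 that were lower in siNONO, where 23.9% and 24% of all genes did so.

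**Figure D1:**
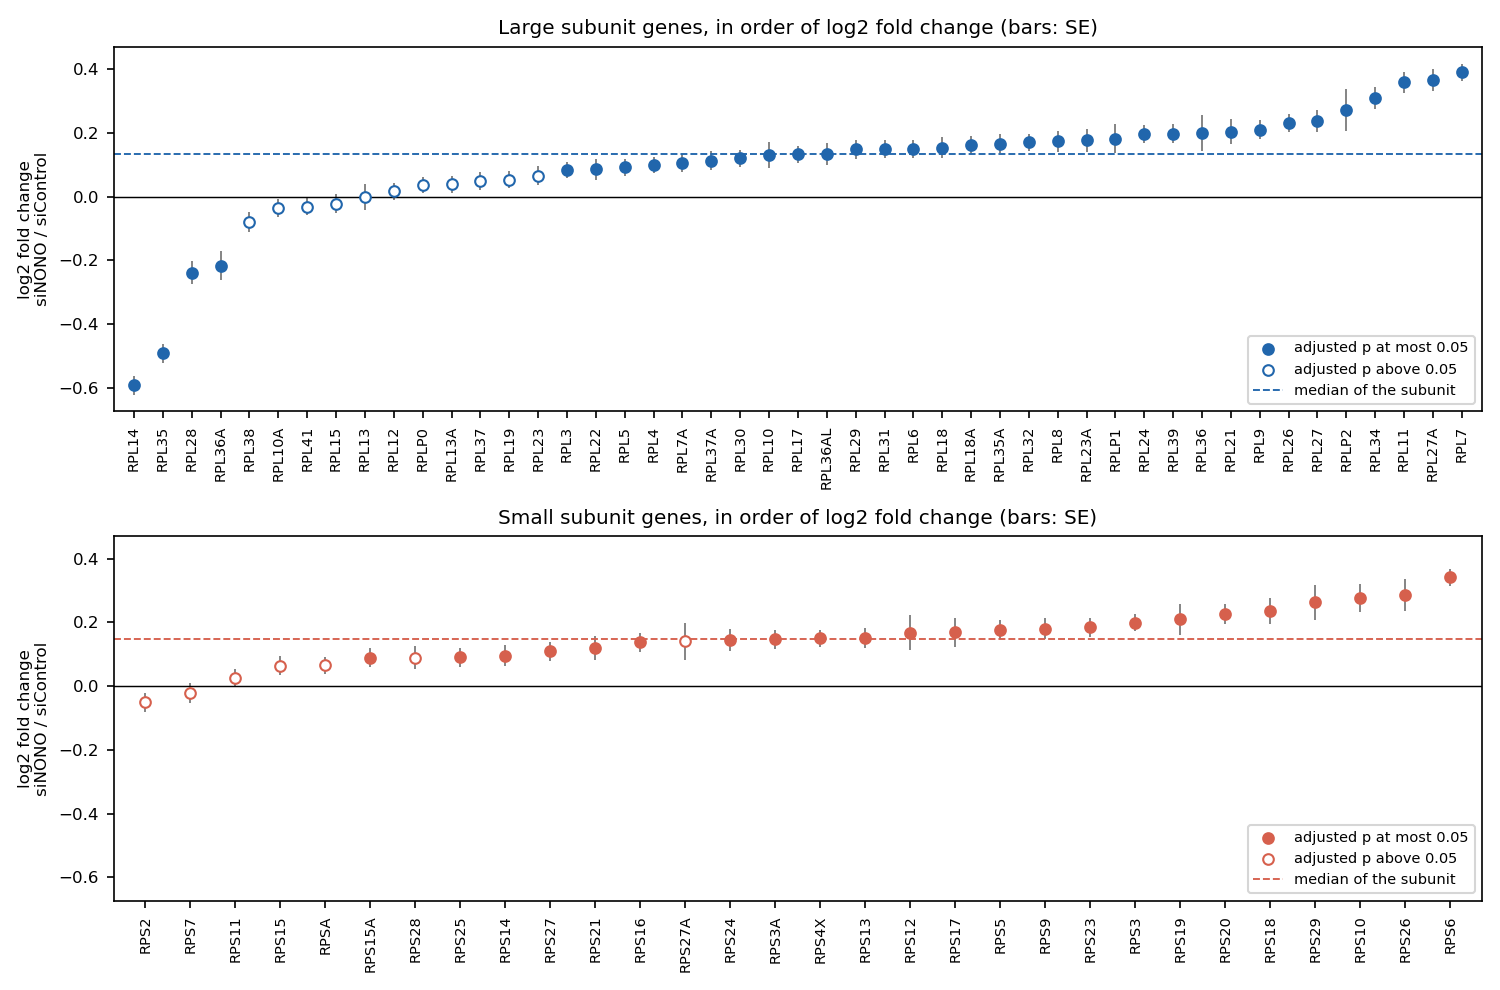
Log2 fold change of each tested ribosomal protein gene (y axis, siNONO over siControl, bars 1 SE of the edgeR fit), in order within the large subunit (top, 47 genes) and the small subunit (bottom, with 1 gene not shown). Filled points passed an adjusted p of 0.05. RPL14 and RPL35 lie far below the others, and the dashed medians lie at 0.13 and 0.15.

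Since abundant genes are tested with little counting error, the share called was also read at matched level. Among the 549 genes whose mean log2 CPM was at least 8, 77.2% were called, 40.8% higher and 36.4% lower. The 70 ribosomal protein genes at that level were called in 77.1% of cases, with 51 higher and 3 lower. The share called was thus that of abundant genes in general, with more of the calls upward; this difference in direction was not tested.

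RPL14 fell most. It encodes a large subunit protein on the solvent face, and lies on chromosome 3 from 40498783 to 40510078 on the plus strand (GRCh37). Its level in siControl was 392, 407 and 384 CPM in Sets 1, 2 and 3, and in siNONO 255, 267 and 263 CPM. The groups were far apart, with each siNONO library below every siControl library by more than 100 CPM. The log2 fold change was -0.59 (SE 0.030, adjusted p = 1.12e-08, edgeR, Benjamini-Hochberg). Per length, RPL14 fell from 796 ± 15.7 TPM to 487 ± 3.11 TPM (SD, n = 3).

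RPL14 also differed in the mean transcript length that RSEM weighted by isoform. This length was 903, 898 and 898 bases in siControl and 909, 922 and 918 bases in siNONO. The groups did not overlap, and the difference of 16.9 bases was the largest among the 17 ribosomal protein genes whose length ranges did not overlap, the others differing by 0.23 to 8.35 bases. Of the 77 members with a length that varied, 7 were longer and 10 shorter without overlap, where 6.57% and 7.01% of all such genes were.

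The letters that pair with bases 2 to 8 of the antisense strand of the siNONO duplex, AAAGCTC, were searched on the sense strand of 1 GENCODE transcript of each gene. They occurred in 12 of 78 members (15.4%) and in 21.0% of all tested genes with a transcript. RPL14 held 3 and was the single member with more than 1, while 0.817% of all tested genes held 3 or more. The sites are shown because they lie in the member that fell most, with the matched letters in capitals. All are in exon 6 of 6 of a 7136-base transcript on chromosome 3 (GRCh37, plus strand), the first at chr3:40503645-40503665 and the next at chr3:40503663-40503683 in the coding sequence, the last at chr3:40505069-40505089 in the 3' UTR.
RPL14 coding site at transcript position 710: tgctccaAAAGCTCagaaggg
RPL14 coding site at transcript position 728: gggtcaaAAAGCTCcagccca
RPL14 3' UTR site at transcript position 2134: aatccaaAAAGCTCtaacctc
The last of these lies past the mean length of 908 bases that the files give RPL14. RPL35, the next lowest gene, had none. Of the 12 members with the letters, 8 were higher, 1 was lower and the median log2 fold change was 0.11, against 48 higher, 3 lower and 0.15 in the 66 without. The letters TGGCTTC, which pair with the same bases of the sense strand, occurred in 11 members (14.1%) and in 32.1% of all tested genes, with 2 in RPL14. Whether the duplex acts on RPL14 was not tested.

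RPL35, on chromosome 9 (127620159 to 127624260, minus strand, GRCh37), encodes a protein at the rim of the exit tunnel. It measured 332, 352 and 350 CPM in siControl and 237, 255 and 242 CPM in siNONO. All siNONO libraries were well below all siControl libraries. The log2 fold change was -0.49 (SE 0.030, adjusted p = 5.28e-08, edgeR), and the level per length fell from 1936 to 1312 TPM. Its neighbours at the tunnel rim did not share this: of the 8 rim genes, RPL35 was the single one to fall, 6 rose and 1 did not pass.

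RPL28 and RPL36A fell less. RPL28, which encodes a large subunit protein that has no bacterial relative, stood at 408, 375 and 412 CPM in siControl and 327, 341 and 345 CPM in siNONO. The groups did not overlap, and the log2 fold change was -0.24 (SE 0.035, adjusted p = 1.20e-04, edgeR). RPL36A, an X-linked gene for a protein near the tRNA exit site, measured 145, 140 and 122 CPM in siControl and 117, 115 and 118 CPM in siNONO. Its groups did not overlap either, but in Set 3 they were only 0.05 apart on the log2 scale, against 0.31 and 0.28 in Sets 1 and 2. Its fitted log2 fold change was -0.22 (SE 0.046, adjusted p = 0.00183, edgeR).

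**Figure D2:**
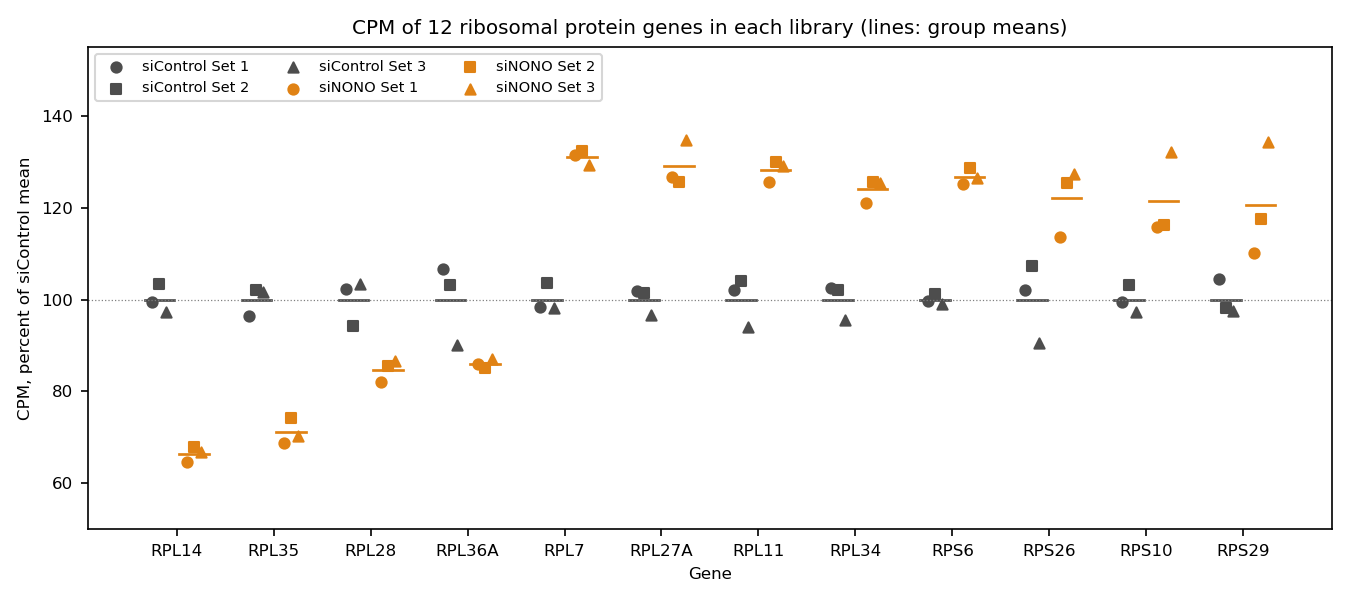
CPM of 12 ribosomal protein genes in each library (y axis, as percent of the siControl mean of that gene), with grey symbols for siControl, orange for siNONO, 1 symbol shape per Set and lines at group means. The 4 genes on the left lie below their siControl values and the 8 on the right above them, and for RPS26, RPS10 and RPS29 the siNONO Set 3 library is highest.

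RPL36A has a paralog, RPL36AL, which encodes a nearly identical protein. RPL36AL went the other way, from 102, 103 and 100 CPM in siControl to 109, 116 and 110 CPM in siNONO (log2 fold change 0.13, adjusted p = 0.00577, edgeR), a call lost in 6 of 18 alternatives. The groups of RPL36AL did not overlap. Summed, the pair measured 237 ± 12.9 CPM in siControl and 228 ± 2.35 CPM in siNONO, values that overlapped between the groups. RPL36A also shares exons with the readthrough gene RPL36A-HNRNPH2, whose level was 40.2 ± 3.96 and 38.1 ± 3.49 CPM. With its counts added to those of RPL36A the log2 ratio of the group means was -0.18. RPS10 has a readthrough partner too, RPS10-NUDT3, which went from 33.7 ± 0.617 to 22.4 ± 2.64 CPM while RPS10 rose.

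The largest rises were those of RPL7, RPL27A and RPL11 in the large subunit. RPL7, one of the conserved RNA-binding proteins of the large subunit, measured 1025, 1080 and 1023 CPM in siControl and 1372, 1380 and 1349 CPM in siNONO (log2 fold change 0.39, SE 0.027, adjusted p = 1.60e-07, edgeR). RPL27A, whose protein has a bacterial relative, went from 568, 566 and 540 CPM to 706, 701 and 751 CPM (0.37, SE 0.035, adjusted p = 2.88e-06, edgeR). For both genes every siNONO library lay clearly above every siControl library.

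RPL11 rose, and the smaller rise of its partner RPL5 depended on the fit. RPL11 measured 501, 511 and 461 CPM in siControl and 617, 638 and 634 CPM in siNONO, without overlap (log2 fold change 0.36, SE 0.034, adjusted p = 2.57e-06, edgeR). RPL5, which forms a particle with RPL11 and a small rRNA, measured 754, 787 and 760 CPM against 805, 837 and 814 CPM. Its groups did not overlap, and the log2 fold change was 0.09 (SE 0.026, adjusted p = 0.0118, edgeR). RPL5 lost its call in 8 of 18 alternatives, with 0.02 under the length offset (adjusted p = 0.535, edgeR), and its level per length was 1333 TPM against 1341 TPM. The difference between the 2 genes was not tested.

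RPL34 and RPL27, of which RPL27 is among the Diamond-Blackfan anemia genes, also rose. RPL34 went from 187, 186 and 174 CPM to 221, 229 and 229 CPM, a log2 fold change of 0.31 (adjusted p = 1.13e-05, edgeR). RPL27 rose by 0.24 on the same scale (adjusted p = 1.14e-04, edgeR). Neither had overlapping groups.

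In the small subunit RPS6 rose most. RPS6 is the ribosomal protein that the mTORC1-dependent S6 kinases phosphorylate. It measured 998, 1013 and 991 CPM in siControl and 1252, 1288 and 1266 CPM in siNONO (log2 fold change 0.34, SE 0.026, adjusted p = 3.90e-07, edgeR). The groups were separated by over 200 CPM, and the 3 Sets gave nearly the same ratio, 0.33, 0.35 and 0.35.

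RPS26, RPS10 and RPS29 came next, with Sets that were less alike. RPS26, at the mRNA exit channel, went from 170, 179 and 151 CPM to 189, 209 and 212 CPM (log2 fold change 0.29, SE 0.051, adjusted p = 5.27e-04, edgeR). RPS10, a protein of the small subunit head, went from 391, 405 and 382 CPM to 455, 456 and 519 CPM (0.28, SE 0.044, adjusted p = 2.06e-04, edgeR). RPS29, a zinc-binding head protein, went from 117, 110 and 109 CPM to 123, 132 and 150 CPM (0.26, SE 0.055, adjusted p = 0.00175, edgeR). None of the 3 had overlapping groups, but their log2 ratios were 0.15, 0.22 and 0.08 in Set 1 and 0.49, 0.44 and 0.46 in Set 3. RPS18 and RPS20 rose by 0.24 and 0.23.

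Among the least raised small subunit genes that still passed were RPS15A, RPS25, RPS14, RPS27 and RPS21, with log2 fold changes of 0.09 to 0.12. Each of these 5 lost its call in 4 to 9 of 18 alternatives. No small subunit gene fell. The lowest value was that of RPS2, the most abundant mRNA of the whole family, which measured 2621, 2675 and 2976 CPM in siControl and 2559, 2691 and 2728 CPM in siNONO. These groups overlapped, and the log2 fold change of -0.05 did not pass (adjusted p = 0.186, edgeR).

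Genes with known special roles were spread over this range. In the stalk, which recruits the elongation factors, RPLP1 (0.18, adjusted p = 0.00559, edgeR) and RPLP2 (0.27, adjusted p = 0.00476, edgeR) rose, whereas the base protein RPLP0 (0.04) and its neighbour RPL12 (0.02) did not pass. RPLP1 and RPLP2 each lost the call in 4 of 18 alternatives. RPLP2 measured 328, 335 and 284 CPM in siControl and 356, 367 and 422 CPM in siNONO, and its log2 ratio in Set 3, 0.57, was far above the 0.12 and 0.13 of Sets 1 and 2. DESeq2 gave RPLP2 an adjusted p of 0.140. RPSA, the laminin receptor protein (0.07), and RPS27A, which is made as a fusion with ubiquitin (0.14), did not pass (adjusted p = 0.0536 and 0.0640, edgeR).

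RPS3 of the head and mRNA entry region (0.20, adjusted p = 5.30e-05), RPS19, the first gene linked to Diamond-Blackfan anemia (0.21, adjusted p = 0.00323), and RPS4X on the X chromosome (0.15, adjusted p = 4.93e-04) rose in the same edgeR test. RPS19 lost its call in 5 of 18 alternatives. RPL39 of the exit tunnel rose as well (0.20). RPL10, a protein near the tRNA sites (0.13), RPL22 (0.09) and RPL3 (0.08) passed in edgeR but not stably. The call was lost or turned in 6, 11 and 8 of 18 alternatives. RPL22 and RPL3 were below 0 in both limma fits, as was the median over all genes. The CPM of RPL22 overlapped between the groups. RPL41, the shortest ribosomal protein, measured 656, 674 and 691 CPM in siControl and 643, 659 and 676 CPM in siNONO, overlapping groups with a log2 fold change of -0.03 that did not pass (adjusted p = 0.363, edgeR).

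The 3 untested members, paralogs with tissue-restricted expression, were nearly silent. RPL3L, a muscle form of RPL3, had 6 to 10 counts in every library. RPL39L, a germline form of RPL39, had 1 count in all, in siNONO Set 2. RPL10L, the testis form of RPL10, had 0 counts in each of the 6 libraries.

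Levels per length differed widely within a complex whose proteins are needed in like amounts. RPS2 (6013 TPM), RPLP0 (3602 TPM), RPL41 (3464 TPM) and RPS18 (3198 TPM) were highest in siControl. RPL36AL (302 TPM), RPL22 (470 TPM) and RPS26 (530 TPM) were the lowest of the tested genes. The fitted log2 fold change had a Spearman correlation of -0.09 with the average log2 CPM over the 78 genes, which share libraries and scaling, given here as a description.

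Both subunits held mostly genes that rose, and the genes that fell were all of the large subunit. In the large subunit 32 of 47 tested genes were higher, 4 lower and 11 did not pass, with a median log2 fold change of 0.13. In the small subunit 24 of 31 were higher, 0 lower and 7 did not pass, with a median of 0.15. Per Set the medians were 0.10, 0.11 and 0.16 for the large subunit and 0.10, 0.10 and 0.22 for the small. The difference of the fitted medians, -0.01, was smaller than its SD over Sets, 0.04, and turned to 0.01 without either Set 3 library. Both of those fits rest on the other Sets, since the block gives a library without its partner no weight.

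**Figure D3:**
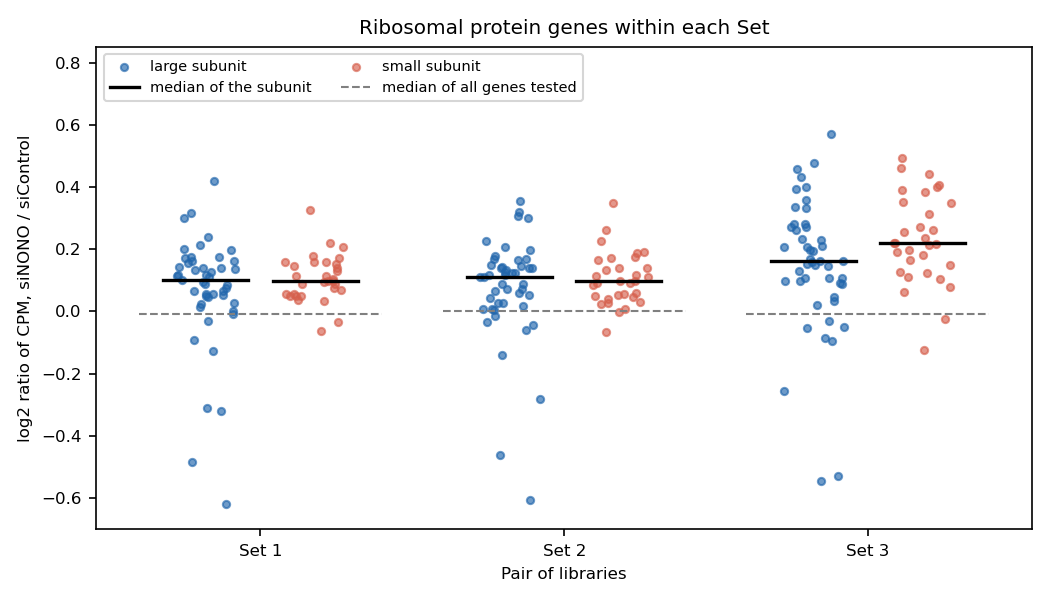
Log2 ratio of CPM, siNONO over siControl (y axis), of each ribosomal protein gene within each Set (x axis), large subunit in blue and small subunit in red, with black lines at the subunit medians and dashed lines at the median of all genes tested. Most points lie above 0 in each Set, and the points of Set 3 are higher and more spread.

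Summed over genes, the ribosomal protein mRNAs held 4.81%, 4.86% and 4.87% of all estimated counts in siControl and 5.06%, 5.10% and 5.40% in siNONO. These groups did not overlap. On the TPM scale, which divides by length, the shares were 13.9% in each siControl library and 14.1%, 13.9% and 14.8% in siNONO, and these overlapped, since siNONO Set 2 lay below all siControl libraries. The rise of the share in TPM thus rested largely on siNONO Set 3: the mean difference was 0.38 percentage points with it and 0.11 without it.

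The balance of the subunits in TPM moved in all Sets. The summed TPM of the large subunit divided by that of the small was 1.442, 1.445 and 1.449 in siControl and 1.418, 1.425 and 1.396 in siNONO. No siNONO library reached the lowest siControl value, and the mean ratio was 1.445 ± 0.00344 against 1.413 ± 0.0153 (SD, n = 3). Without siNONO Set 3 the difference was -0.02 instead of -0.03. An exact permutation test of this ratio gave p = 0.1, the smallest value possible with 3 libraries a group. The large subunit sum includes the genes that fell. Mean TPM went from 796 to 487 for RPL14, 1936 to 1312 for RPL35, 1112 to 873 for RPL28 and 766 to 628 for RPL36A. Their part in the lower ratio was not tested.

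**Figure D4:**
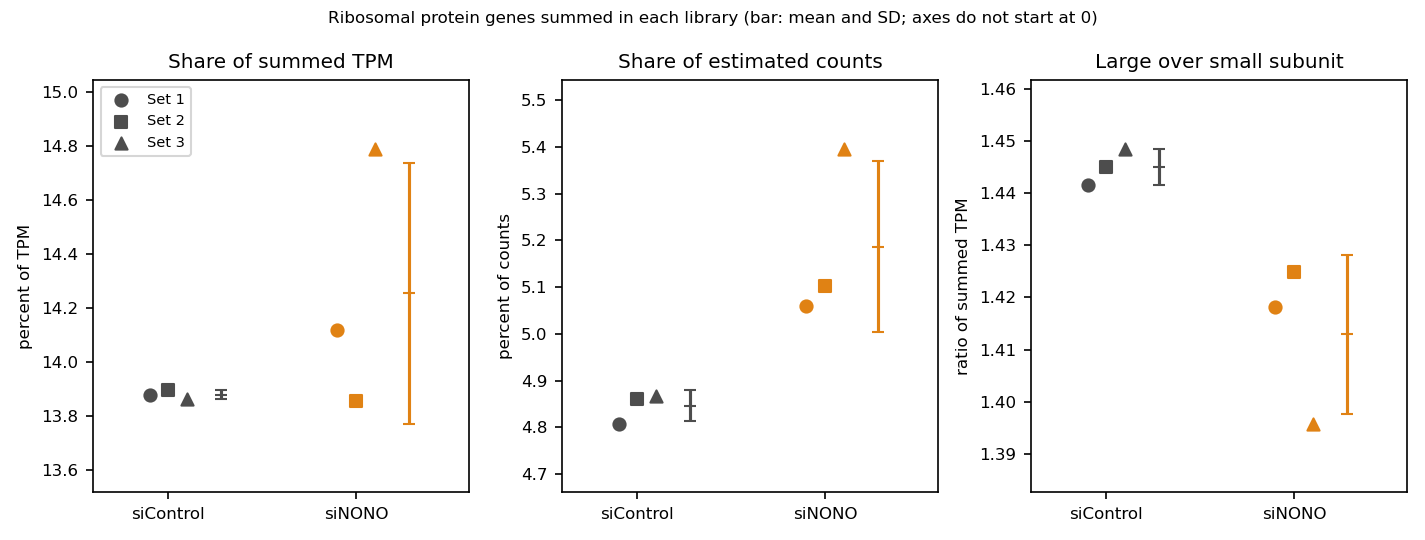
Share of summed TPM (left, percent), share of estimated counts (middle, percent) and large over small subunit ratio of summed TPM (right) of the ribosomal protein genes in each library, with symbols for Sets and bars for mean and SD of 3 libraries; the y axes do not start at 0. The groups separate in the middle and right panels and overlap in the left one.

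Set 3 carried the largest ratios. It gave the largest of the 3 log2 ratios in size in 61 of 78 genes, and the siNONO Set 3 library had the highest CPM of all libraries for 44 genes. Medians over the ribosomal protein genes were 0.10, 0.10 and 0.20 in Sets 1, 2 and 3. Without siNONO Set 3, 52 genes were higher and 6 lower, with a median log2 fold change of 0.10. Without siControl Set 3, 51 were higher and 5 lower, with the same median. Under the Set block a library without its partner has no weight in the fold change. Both fits therefore rest on Sets 1 and 2 and are not separate checks. The pattern among genes was alike in the Sets all the same: as a description across the 78 genes, the log2 ratios of Sets 1 and 2 had a Pearson correlation of 0.95, and those of Set 3 correlated at 0.79 and 0.82 with them.

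Transcript length moved with the general rise and stands beside it. Taken without regard to function, genes with short transcripts had a median above 0 and those with long transcripts a median below 0. The trend was weak for single genes: fold change and length had a Spearman correlation of -0.12 over 13262 other genes, given as a description. Among other genes whose mean log2 CPM was at least 1, the median log2 fold change was 0.08 in the 970 genes of 500 to 1000 bases and -0.05 in the 857 genes above 6000 bases. Over the 2685 other genes within the length range of the ribosomal protein genes it was 0.06, with 0.05, 0.06 and 0.09 in Sets 1, 2 and 3. Of these, the 92 whose mean log2 CPM was at least 8 had a median of 0.06 too. The 70 ribosomal protein genes at that level had a median of 0.15. These sets share a range of lengths but were not matched within it. The median length was 1108 bases in the 2685 genes and 1034 in the 92. It was 644 in the ribosomal protein genes and 671 in the 70 of them.

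With an offset that removes the trend with length in each library, 23 ribosomal protein genes were higher and 13 lower, where 22.6% and 23.9% of all genes were, and their median was 0.03. The count of higher genes and the median therefore depend on this setting. The 4 genes that fell still did so, at -0.67 (RPL14), -0.62 (RPL35), -0.34 (RPL36A) and -0.34 (RPL28). RPL7 (0.31), RPS6 (0.27), RPL27A (0.26) and RPL11 (0.25) were still the highest. RPL41 (-0.16) and RPS2 (-0.14) were among the 13 lower genes there. The part of transcript length in the rise was not tested.

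The limma fit on log2(TPM + 1) called fewer members, 11 higher and 6 lower, with a median of 0.06 beside -0.07 over all genes. RPL14, RPL35, RPL28, RPL36A, RPL7, RPL27A, RPL11, RPL34 and RPS6 passed in it with the same sign, whereas RPS26, RPS10, RPS29 and RPS18 did not, with adjusted p of 0.0528, 0.0574, 0.230 and 0.0841.

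Within the small subunit, head and body genes were counted apart. Of the 14 genes for proteins of the head, 11 were higher and 0 lower, with a median log2 fold change of 0.17. Of the 17 of the body and platform, 13 were higher and 0 lower, with a median of 0.12. The 19 Diamond-Blackfan anemia genes held 15 that were higher, 1 that was lower (RPL35) and a median of 0.15. Introns of 29 members hold small nucleolar RNA genes. Of these hosts 20 were higher and 0 lower, with a median of 0.12, against 36 higher, 4 lower and 0.15 in the 49 tested members without one. The shares called were 78.6% (head), 76.5% (body and platform), 84.2% (anemia genes) and 69.0% (hosts). They lie around the 76.9% of all tested members, beside 23.2% higher and 23.4% lower over all genes tested. Differences among these groups were not tested.

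A TOP tract at the transcription start was found among both risers and fallers. A start was counted as TOP where RefSeq's first base was a C followed by at least 4 bases of C or T. This held for 46 of 64 members with a RefSeq start (71.9%). Counted by start, it held for 46 of 79 starts of members and for 3.95% of the starts of other genes. Over all 35116 RefSeq starts the share was 4.07%. The median log2 fold change was 0.15 in the 46 TOP members and 0.13 in the 17 others that were tested. RPS4X, which rose by 0.15, was among the members without a TOP start. For a gene with several RefSeq starts, the window below is that of a TOP start where present. The start windows of the 4 genes that fell and of RPL27A, RPL11, RPS6 and RPL34, which with RPL7 rose most, are shown to set their tracts side by side, with 15 bases before and 15 from the start on, the run of C and T that holds the start in capitals (RefSeq, GRCh38.p14).
RPL14 (fell), chr3:40457324-40457353, plus strand: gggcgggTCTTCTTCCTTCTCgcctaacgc
RPL35 (fell), chr9:124861943-124861972, minus strand: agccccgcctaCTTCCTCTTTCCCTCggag
RPL28 (fell), chr19:55385917-55385946, plus strand: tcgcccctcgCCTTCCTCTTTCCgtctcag
RPL36A (fell), chrX:101390996-101391025, plus strand: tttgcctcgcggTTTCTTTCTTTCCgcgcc
RPL27A (rose), chr11:8682777-8682806, plus strand: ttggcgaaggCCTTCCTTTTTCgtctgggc
RPL11 (rose), chr1:23691791-23691820, plus strand: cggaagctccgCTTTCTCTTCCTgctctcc
RPS6 (rose), chr9:19380222-19380251, minus strand: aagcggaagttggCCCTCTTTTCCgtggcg
RPL34 (rose), chr4:108620561-108620590, plus strand: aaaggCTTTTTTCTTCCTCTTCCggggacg
The runs in capitals include bases before the start, so their lengths are not those of the TOP tract in the mRNA. They were 13 to 15 bases long in the genes that fell and 11 to 18 in those that rose. Since a TOP start was shown where present, a run in each window follows from that choice. The windows of RPL7 and RPS4X are not shown, and RPS4X had no run of C and T at its start.

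Close relatives outside the rule were also measured. RPS27L, the p53-responsive relative of RPS27, rose from 35.5 ± 0.486 to 55.5 ± 1.78 CPM (log2 fold change 0.65, adjusted p = 1.88e-07, edgeR). RPL22L1 (0.39) and RPL26L1 (0.39) rose more than RPL22 and RPL26 did, a difference that was not tested, and RPL7L1, a nucleolar relative of RPL7, fell by 0.61 on the log2 scale. FAU (0.32), made as a fusion with a ubiquitin-like protein, and the small subunit protein RACK1 (0.12) passed in edgeR's test, RACK1 losing its call in 4 of 18 alternatives. Of the 78 mitochondrial ribosomal protein genes tested, 34 were higher and 6 lower, with a median of 0.11. Over all genes tested 23.2% were higher and 23.4% lower. Both families were read in the same libraries.

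Other genes with TOP mRNAs were mostly higher too. Of 21, 12 were higher and 2 lower, with a median log2 fold change of 0.12, beside 23.2% higher and 23.4% lower over all genes tested. The highest were NAP1L1 (0.64), a histone chaperone, and EIF3H (0.33), and the 2 lower were HNRNPA1 (-0.40), a splicing factor, and EEF1A1 (-0.09), the elongation factor that delivers tRNAs, whose call was lost in 7 of 18 alternatives. Among 37 genes of rRNA processing and subunit assembly, 21 were higher and 3 lower, with a median of 0.13. PNO1 (0.50) and NOB1 (0.29), which mature the small subunit, were the highest, and NAT10 (-0.31) and NCL, nucleolin (-0.20), the lowest.

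RNA polymerase I and III, which make the rRNA and other small RNAs, were mixed in direction. Of 28 genes, 7 were higher and 10 lower, with a median log2 fold change of -0.05. Over all genes tested 23.2% were higher and 23.4% lower. POLR3B (-0.70) and POLR3K (-0.41) of polymerase III were the lowest and POLR1H (0.30) and POLR1E (0.25) of polymerase I the highest, POLR1H losing its call in 5 of 18 alternatives. Of 13 chaperones and import factors of ribosomal proteins, 7 were higher and 3 lower. AAR2 (0.46), otherwise known for assembly of a spliceosomal particle, and PDCD2L (0.39) were the highest, and IPO9 (-0.52), an importin, and TSR2 (-0.13), the RPS26 chaperone, were the lowest called. TSR2 lost its call in 12 of 18 alternatives (adjusted p up to 0.257).

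The regulators and the initiation factors had medians near 0. Of 16 genes of mTORC1, LARP1 and MYC control, 4 were higher and 3 lower, with a median of -0.0003. These shares were near those over all genes tested, 23.2% higher and 23.4% lower. RHEB, the GTPase that activates mTORC1, measured 90.2, 95.0 and 84.7 CPM in siControl and 55.1, 54.3 and 50.9 CPM in siNONO, without overlap (log2 fold change -0.75, SE 0.039, adjusted p = 1.31e-08, edgeR). DEPTOR, an mTOR inhibitor, was higher in edgeR (0.39) but lost its call in 6 of 18 alternatives, with 0.06 in limma on log2(TPM + 1) (adjusted p = 0.795). RPS6KB2 was higher (0.27) and EIF4EBP2 lower (-0.17). Of 19 genes of the eIF4F and eIF2 steps of initiation, 6 were higher and 6 lower, with EIF2S3 (0.62) and EIF2B2 (0.29) at the top and EIF2S2 (-0.42) and EIF5B (-0.28) at the bottom. Amounts of ribosome, protein and translation were not measured.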

How the data were processed

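RNA-seq of HCT116 cells was taken from 3 siControl and 3 siNONO libraries (polyA RNA, stranded kit). The authors aligned reads with STAR to GRCh37 and ran RSEM (version 1.3.1 per the submitters' processing notes). They deposited for each gene the estimated count, which is not normalized, the TPM and the FPKM, both scaled by RSEM for length and library size, and the mean and effective transcript length. FPKM was not used.

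Of 62492 gene IDs 62211 matched a symbol, and coordinates came from the GENCODE annotation of GRCh37. Counts, rounded to whole numbers, were tested with edgeR (version 4.0.16, legacy quasi-likelihood form, R 4.3.3), scaled by TMM, filtered by filterByExpr and blocked by Set. P-values of 17000 genes were adjusted by Benjamini-Hochberg, with 0.05 as the limit of a call. The standard error was the log2 fold change divided by the root of F. Ratios within a Set used CPM with a prior count of 0.5. The fit was tested on simulated data. The Set numbers of the labels were taken as pairs. Deviations from group means correlated at 0.62, 0.35 and 0.67 within Sets 1, 2 and 3 over 6550 genes. Between Sets 1 and 2 they correlated at 0.21 and 0.32, and between Set 3 and the others at -0.60 to -0.33. Set 3 was thus set apart more clearly than Sets 1 and 2 were from each other. Alternatives used DESeq2 (version 1.42.0), limma (version 3.58.1) on log2(TPM + 1) and log2(TPM + 0.1), other scalings and filters, and no block. Others used a loess offset for length (span 0.3) or left out each library in turn. The latter kept the Set block, so a library whose partner was dropped had no weight in the fold change. Counts of alternatives thus include pairs of nearly the same fit, 1 pair for each Set. The typical biological coefficient of variation was 3.51%, which with these depths lets changes of a few percent be called in abundant genes.

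Pseudogenes (1587, of 77 members) held 2.18% to 2.36% as many counts as the ribosomal protein genes, and reads could have been split among these near-identical copies. Members and gene lists were chosen with earlier results of these data known. Named were, in each subunit, the 6 highest and 6 lowest called genes with 1 direction in all Sets, members picked for their role, relatives, and the 2 highest and 2 lowest called genes of each comparison list. RPL12, RPL26 and RPS2 were named after their values were seen. Values of 2 single genes that the rule would name are not reported here.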

Additional observations from a re-analysis of the deposited data

How the results depend on the processing

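RPL14, RPL35, RPL28 and RPL36A stayed lower, and RPL7, RPL27A, RPL11, RPL34, RPL27, RPS6 and RPS20 higher, past the threshold in all 18 alternatives run for single genes. DESeq2 called 5227 genes in all. Limma on log2(TPM + 1) called 5257 genes in all, 17 ribosomal protein genes (11 higher) and 46 genes of the comparison lists, with medians of 0.065 (all members), 0.053 (large subunit) and 0.069 (small subunit). With a pseudocount of 0.1 these were 5250, 17, 11, 47, 0.065, 0.053 and 0.069. In both limma fits the sign turned for RPL3 (-0.0084), RPL22 (-0.032), RPLP0 (-0.050), RPSA (-0.018) and the median of chaperones and import factors (-0.0059 and -0.0060). The median over all genes was -0.07 with log2(TPM + 1) and -0.09 with log2(TPM + 0.1).

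With the length offset and replicate block, 36 ribosomal protein genes were called, 23 higher and 13 lower, with medians of 0.035 (all), 0.031 (large) and 0.046 (small). The sign turned for RPS15A (-0.027), RPS25 (-0.031), RPS14 (-0.0027), RPS27 (-0.023), RPS21 (-0.012) and RPLP0 (-0.025), none past the threshold. The cause of these shifts was not tested beyond the construction of each scale. Without the replicate block 43 members were called, 39 higher and 4 lower, and no count moved by over 1.5 times.

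Leaving out 1 library gave medians of 0.095 to 0.171 over all members and 0.095 to 0.147 in the large subunit. In the small subunit they were 0.0895 to 0.184, against 0.147 with all libraries. Differences between subunit medians were -0.042 to 0.0059. The small subunit median was 0.0895 without siNONO Set 3 and 0.0925 without siControl Set 3, and the difference was positive in both. Under the Set block these fits rest on the same remaining pairs. Under the other scalings, filters and memberships the counts of called members stayed within 1.5 times of 60. With 1 library left out they stayed between 52 and 59. Of 62 named genes called in edgeR, 34 kept the call in every alternative and 28 lost it in at least 1, of which 14 in 5 or more (TSR2 in 12, RPL22 in 11, RPS14 in 9). Over these genes 139 of 1116 alternative fits lost the call. Precision is limited by 3 libraries a group rather than by depth. For RPL3L, RPL39L and RPL10L depth is the limit, and a change was not detectable.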
